A study of Mus musculus with 5 samples.

Results

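Bmp2, Bmp4 and Bmp7 encode the bone morphogenetic protein (BMP) ligands of the limb bud, and the open chromatin around them was compared between Smarcc1 mutant and control forelimbs. Peaks of 5 ATAC-seq libraries were merged into regions wherever they shared at least 1 bp. Every region in or within 200 kb of the mm10 body of 1 of the 3 genes was taken, which gave 139 of 86713 regions. The Bmp2 window (gene at chromosome 2, 133552159 to 133562896) held 26 of them, the Bmp4 window (chromosome 14, 46383525 to 46390669) 15 and the Bmp7 window (chromosome 2, 172868012 to 172940321) 98. A window belongs to a stretch of DNA and need not act on the gene it is named for. The Bmp2 and Bmp4 windows held no other protein-coding gene, whereas the Bmp7 window also held Spo11, Rae1, Rbm38, Ctcfl and the gene model Gm40011.

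ATAC-seq marks open chromatin by the cuts of a transposase. Each library came from 50K cells of the anterior forelimb pair of a single mouse embryo, genotyped on its own, at E11.5 (40 to 48 somites). The 3 mutants were PrxCre/+;Smarcc1c/c. The 2 controls were Prx+/+;Smarcc1c/c and so carried the conditional allele without Cre. The product of Smarcc1, BAF155, is a scaffold protein of the BAF remodelling complex, and Prx-Cre, driven by sequence of the Prrx1 gene, acts in limb mesenchyme, so ectoderm, vessels and muscle precursors of the mutant bud are expected to keep the gene. In such bulk samples fewer cells of a type and less open chromatin per cell cannot be told apart.

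BMPs are secreted dimers that bind paired type I and type II serine/threonine kinase receptors, which phosphorylate Smad1, Smad5 and Smad9; these enter the nucleus with Smad4. In the limb bud they are made in the mesenchyme and in the apical ectodermal ridge, and they are known for roles in digit patterning, cartilage formation and the death of cells between the digits. Gremlin 1, a secreted antagonist, holds BMP activity down while the bud grows out. Bmp2 is also known as a gene that responds to Hedgehog signalling in the limb.

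Start-site windows (250 bases before to 50 after the annotated start) were taken from RefSeq, build GRCm38.p6, whose coordinates are those of mm10. The table held 1 of the 3 ligand genes, Bmp4. The lines below show 3 windows that differ in how the mutants behaved: the Bmp4 start lay in a region with a peak in every library, the start of Rubie, a long noncoding RNA gene in the Bmp4 window, met a region found in the controls alone, and an internal start of Gm40010, a noncoding gene inside Bmp7, lay in a region of every library that ranked lower in the mutants. All are on the minus strand, 5′ to 3′, and capitals mark GC boxes (GGGCGG) and E-boxes (CANNTG), searched on both strands.
Bmp4 start (chr14:46390620-46390919): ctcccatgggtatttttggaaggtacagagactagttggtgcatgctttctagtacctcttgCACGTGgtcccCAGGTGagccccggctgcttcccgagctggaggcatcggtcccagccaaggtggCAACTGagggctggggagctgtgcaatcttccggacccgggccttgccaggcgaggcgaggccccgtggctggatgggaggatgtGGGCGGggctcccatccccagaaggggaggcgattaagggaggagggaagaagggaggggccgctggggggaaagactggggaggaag
Rubie start (chr14:46575802-46576101): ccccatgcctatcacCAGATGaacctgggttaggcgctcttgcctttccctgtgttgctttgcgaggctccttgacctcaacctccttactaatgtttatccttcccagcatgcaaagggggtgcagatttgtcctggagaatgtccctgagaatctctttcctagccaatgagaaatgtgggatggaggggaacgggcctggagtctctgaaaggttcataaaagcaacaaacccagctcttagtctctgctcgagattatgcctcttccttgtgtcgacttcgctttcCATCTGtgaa
Gm40010 internal start (chr2:172934097-172934396): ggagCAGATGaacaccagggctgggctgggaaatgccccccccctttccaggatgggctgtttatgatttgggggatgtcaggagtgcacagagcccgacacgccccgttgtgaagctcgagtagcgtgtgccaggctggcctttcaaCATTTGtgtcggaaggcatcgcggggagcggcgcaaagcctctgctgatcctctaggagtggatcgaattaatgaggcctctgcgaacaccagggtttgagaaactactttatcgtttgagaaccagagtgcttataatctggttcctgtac
The Bmp4 window held 1 GC box and 3 E-boxes and was 64.0% G and C. The Rubie window held no GC box and 2 E-boxes at 50.0% G and C, and the Gm40010 window no GC box and 2 E-boxes at 55.0%. The median over all 32851 start-site windows was 52.7% G and C, 35.7% of them held a GC box and 72.3% an E-box. The letters TGGGTGGTC of a GLI site were in 0.253% of all windows and in none of the 3, and neither were TATAAA (13.6% of all windows) nor the homeodomain letters TAATTA (5.29%).

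Read depth is unknown, since the files are peak lists. Peaks numbered 27194 to 42794 in the mutants and 60333 and 68959 in the controls, and the lowest fold of a list was 2.46 to 2.52 in the mutants and 2.29 and 2.43 in the controls, so chromatin may be open below that level where none is listed. The fold is the authors' own enrichment over background at the peak summit; it is scaled within a library only. Mutants 1, 2 and 3 held a peak at 60.9%, 61.4% and 48.2% of the 45158 regions that both controls shared. At the ends of 7 marker genes of limb mesenchyme and anterior limb (Prrx1, Prrx2, Twist1, Tbx5, Msx1, Alx4 and Pax9), a peak was found for 7, 7 and 3 genes in mutants 1, 2 and 3 and for all 7 in each control; Prrx2, Tbx5, Alx4 and Pax9 lacked one in mutant 3. At the ends of 13 marker genes of ectoderm, endothelium, blood, muscle precursors and neural crest, it was found for 8, 9 and 5 genes in mutants 1, 2 and 3 and for 10 and 8 in controls 1 and 2, with folds of 2.95 to 13.0. The ends of Trp63, Cdh5 and Gata1 had no peak in any library. Of 2 hindlimb genes, Tbx4 had an end peak in all 5 libraries and Pitx1 in all but mutant 3. Expression was not measured, so such a peak is not read as a sign of an active gene. The Prrx1 end, whose sequence the Cre transgene may share, reached 22.7, 22.7 and 18.5 in mutants 1, 2 and 3, against 9.54 and 9.3 in controls 1 and 2. The share of other cells in each library, and its part in the results, was not tested. The Smarcc1 end stood at 9.26, 8.38 and 8.41 in mutants 1, 2 and 3, beside 10.9 and 10.2 in controls 1 and 2, which does not check the deletion, since an end of the gene need not lie in the deleted part.

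Fewer regions held a peak in every mutant than in either control at each of the 3 ligand genes. At Bmp2, 10, 4 and 8 regions had a peak in mutants 1, 2 and 3, against 20 and 21 in controls 1 and 2 (means 7.33 ± 3.1, SD, n = 3, and 20.5 ± 0.71, SD, n = 2). At Bmp4 the numbers were 5, 6 and 5 in the mutants against 12 and 10 in the controls (5.33 ± 0.58 and 11 ± 1.4). At Bmp7 they were 27, 48 and 19 in the mutants against 67 and 49 in the controls (31.3 ± 15 and 58 ± 13), so mutant 2 came within 1 region of control 2. By exact permutation over libraries, two-sided, p was 0.2 at each gene and 0.2 after adjustment over the 3 genes, the smallest that 3 against 2 libraries allow. Such a gap between the groups was common: 58.3% of the 20244 protein-coding genes with a region in their window had fewer regions in every mutant than in either control. The mutant lists are shorter as a whole, and set against its own length each list gave 3.54, 0.935 and 3.68 Bmp2 peaks per 10000 in mutants 1, 2 and 3 against 3.05 and 3.81 in the controls, 2.18, 1.64 and 2.57 Bmp4 peaks against 1.89 and 1.99, and 8.99, 11.9 and 6.99 Bmp7 peaks against 10.2 and 9.12. The groups overlapped for each gene on this scale (exact permutation p = 0.8 each, n = 3 and 2), while over the genome the share was lower in every mutant than in either control at 11.4% of genes and higher at 38.0%. Summed over the 3 genes the groups did not overlap, with 14.7, 14.5 and 13.2 peaks per 10000 in mutants 1, 2 and 3 against 15.1 and 14.9 in the controls (difference -0.855; exact permutation p = 0.2, n = 3 and 2), and with lists of equal length the difference was 1.04. The groups overlapped there and with a window of 100 kb, where the difference was -0.444 (exact permutation p = 0.6 each). How often sums over 3 genes separate in the genome was not counted. When every list was shortened to its 27194 strongest peaks, Bmp2 had 6, 4 and 8 regions in the mutants against 9 and 8 in the controls, while at Bmp4 (5, 4 and 5 against 4 and 3) and at Bmp7 (18, 23 and 19 against 15 and 18) the mean was higher in the mutants, so the direction at those genes turned. The groups overlapped at each gene there (exact permutation p = 0.4 each, n = 3 and 2).

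**Figure D1:**
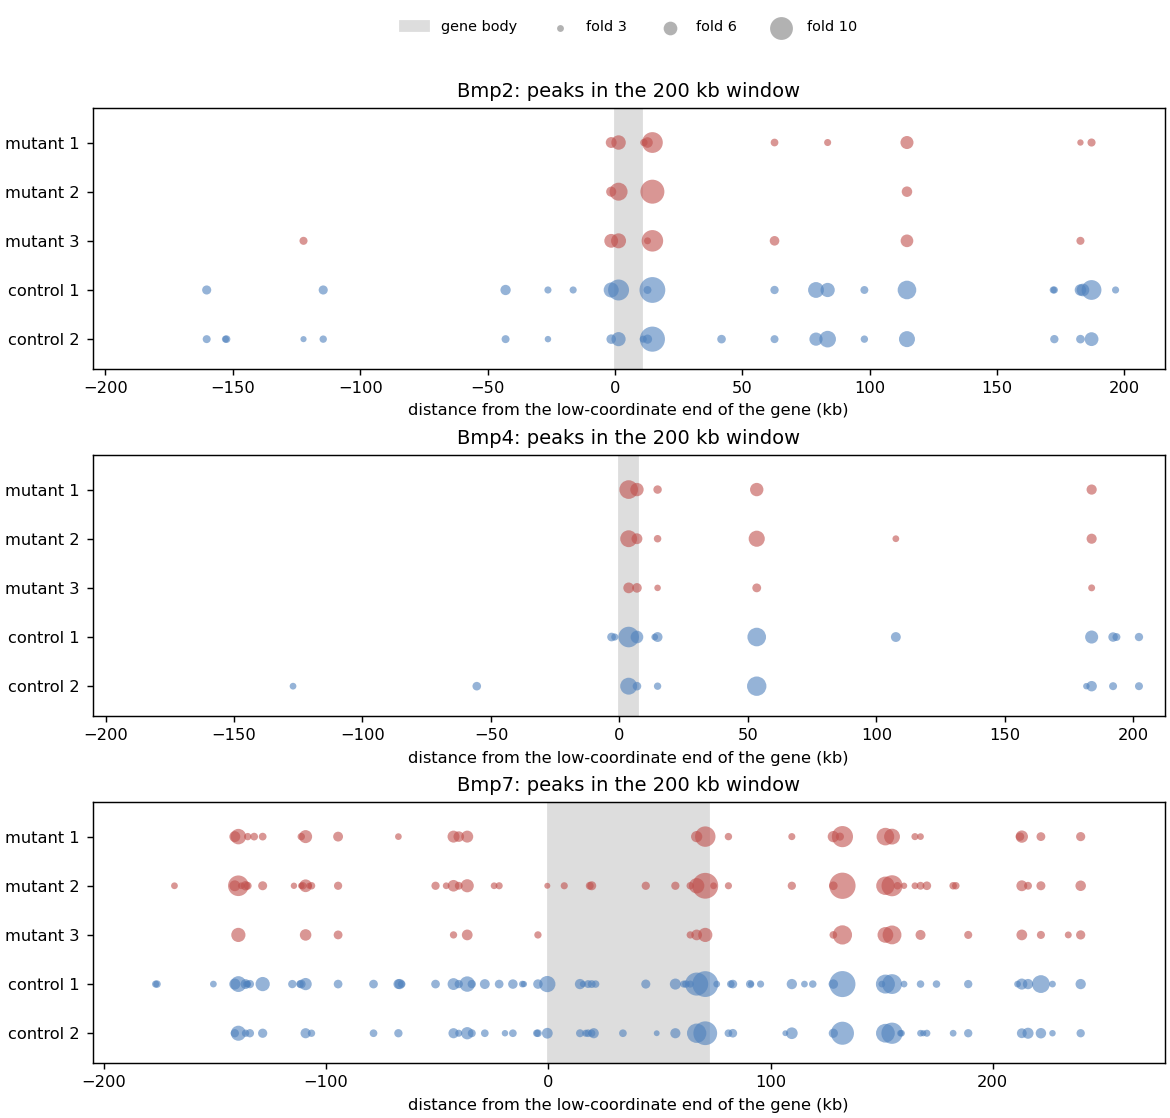
Peaks around Bmp2, Bmp4 and Bmp7 in 3 mutant libraries (upper rows, red) and 2 control libraries (lower rows, blue). The horizontal axis gives the distance in kb from the low-coordinate end of the gene, the grey band the gene body, and the area of a dot is proportional to the square of the fold. Peaks at the low-coordinate end of Bmp2 and the high-coordinate ends of Bmp4 and Bmp7 line up in all 5 rows, and most of the weak outlying dots of the controls have no partner in the mutants. The row of mutant 2 holds 4 regions at Bmp2.

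**Figure D2:**
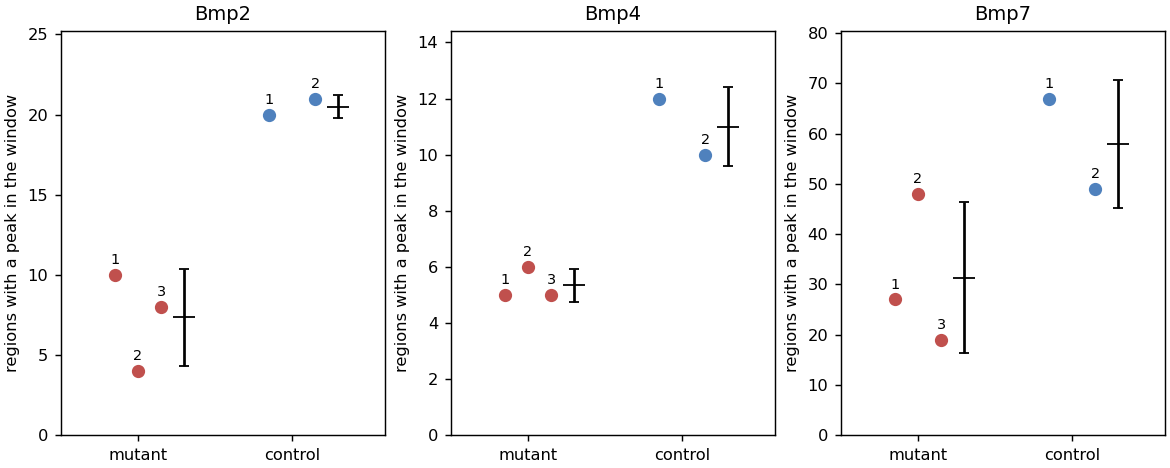
Number of regions with a peak in each window (vertical axis) by library; dots are single libraries with their number, and the bar beside them is the mean with its SD (3 mutants, 2 controls). All 3 mutants lie below both controls in each panel; at Bmp7 mutant 2 (48) nearly reaches control 2 (49).

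Both controls shared 58 regions in the windows of the ligand genes, and 18 of them (31.0%) had no peak in any mutant, against 30.4% of the 45158 such regions of the genome. All 18 were distal, meaning more than 1 kb from either end of any protein-coding gene: 18 of 47 distal regions (38.3%) and 0 of 11 gene-end regions were absent, with 42.0% and 4.64% over the genome. A peak in every library was found at 23 of the 58, where the genome had 43.4%. By class these were 15 of 47 distal regions (31.9%; 26.4% over the genome) and 8 of 11 gene-end regions (81.3% over the genome). By gene, the absent share was 7 of 16 regions at Bmp2 (43.8%), 2 of 7 at Bmp4 (28.6%) and 9 of 35 at Bmp7 (25.7%). Over the 13073 protein-coding genes with at least 10 regions of both controls in their window, the median absent share was 16.7% (quartiles 7.69 and 27.3%) and the median share found in every library 54.5%, against 25% at Bmp2, 71.4% at Bmp4 and 40.0% at Bmp7. The absent share of each ligand gene thus lay above that median, though Bmp4, with 7 such regions, falls short of the 10. An absent share at least as high as that of Bmp2 was found at 7.67% of these genes. From the strength of each region in the controls and its class, the rates over the genome add up to 5.54, 2.1 and 12.5 absent regions for Bmp2, Bmp4 and Bmp7. The numbers found were 7, 2 and 9. The 3 shares were not tested against each other, and their 95% Clopper-Pearson intervals (19.8 to 70.1%, 3.67 to 71.0% and 12.5 to 43.3%), which treat regions as independent and cover counting error only, overlap. With control 2 left out, where the regions of control 1 alone are the base, 34 of 68 (50.0%) were absent at Bmp7, 6 of 12 (50.0%) at Bmp4 and 51 of 100 (51.0%) over the 3 genes. With control 1 left out, 5 of 11 (45.5%) were absent at Bmp4, and without mutant 2, 14 of 35 (40.0%) at Bmp7. Leaving out a control adds regions of a single control to the base, and leaving out a mutant cannot lower the number absent. The share over the genome was not counted in these settings, so they are not to be set against 30.4%. No region of the 3 windows was shared by the mutants but missing from the controls (0.0484% of all regions were). Absent regions were the weaker ones: their median strength percentile in the controls was 23.4, against 68.0 for those found in every library, and over the genome 26.5 against 77.1.

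At Bmp2 the chromatin at the low-coordinate end of the gene was open in every library, and 2 of 14 distal regions of both controls were. The region over the low-coordinate end of the gene (chromosome 2, 133551898 to 133555251) reached a fold of 6.33, 7.88 and 6.56 in mutants 1, 2 and 3, against 9.19 and 6.2 in controls 1 and 2. The neighbouring region 0.716 kb outside that end (133549946 to 133551443) had folds of 4.78, 4.43 and 6.06 in the mutants and 6.59 and 4.18 in the controls. Both thus held a peak in every library, and no other region of the gene's ends or body did: 133563154 to 133563354 had a peak in control 2 alone (fold 3.1) and 133563396 to 133563648 in mutant 1 alone (3.24). The strongest region of the window lay 2.96 kb beyond the high-coordinate end (133565855 to 133567857), with folds of 9.1, 10.5 and 9.42 in the mutants and 11.3 and 11 in the controls. A distal region 103 kb beyond the same end (133666161 to 133667396) was the only other one found in all 5 libraries, at 5.71, 4.6 and 5.55 in the mutants against 8.15 and 7.01 in the controls.

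Of the 14 distal Bmp2 regions of both controls, 7 had no peak in any mutant, 2 had a peak in 1 mutant, 3 in 2 mutants and 2 in all of them. The strongest absent region (133630405 to 133631744) lay 67.5 kb beyond the high-coordinate end, with folds of 6.94 in control 1 and 5.79 in control 2. Its strength percentile among the regions of both controls was 70.7, and 12.7% of distal regions of that strength class over the genome were absent from every mutant. A second region 72.4 kb out (133635316 to 133635968) had a fold of 3.09 in mutant 1 and no peak in mutants 2 and 3, against 6.24 and 7.28 in the controls. A further one, 176 kb out (133738749 to 133739699), had 3.55 in mutant 1 and no peak in mutants 2 and 3, against 8.67 and 6.06 in the controls. These 3 regions were strong in the controls and thin or missing in every mutant. With lists of equal length, the regions 67.5 and 72.4 kb out stayed in both controls. Shortening cannot add a mutant peak: the first had none, and the 3.09 of mutant 1 at the second lay under the lowest fold kept there, 3.39.

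The other absent Bmp2 regions were weak. They included regions 42.7 kb (133508951 to 133509503; folds of 4.51 and 3.5 in controls 1 and 2), 160.0 kb (133391643 to 133392173; 3.99 and 3.5) and 114 kb (133437357 to 133437937; 3.99 and 3.23) on the low side and 162 kb (133724421 to 133724829; 3.12 and 3.64) on the high side. Of the 5 regions on the low side shared by the controls, 4 were absent from every mutant, against 3 of 10 on the high side. Over the genome, 48.8 to 70.0% of distal regions in the strength classes of those 4 were absent. For the 10 on the high side these rates ran from 0.383 to 60.9%. The counts were not tested, and side was not separated from strength.

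Of the mutants, mutant 2 kept the fewest regions at Bmp2. It held 4 of the 16 regions of both controls (25%), exactly those found in all 5 libraries, whereas mutants 1 and 3 kept 9 (56.2%) and 7 (43.8%). Over the genome mutant 2 kept the most of the 3 mutants. Among the same 13073 genes, mutant 2 kept the fewest of the 3 mutants at 5.82% and at most the share it kept at Bmp2 at 0.933%, a comparison chosen after the values were seen. The regions 51.5 kb (133614432 to 133615156) and 172 kb (133734423 to 133735315) beyond the high-coordinate end show it: they had folds of 3.39 and 2.78 in mutant 1, no peak in mutant 2, and 4.21 and 3.53 in mutant 3, against 3.64 and 5.03 in control 1 and 3.5 and 3.77 in control 2. Without mutant 2 the number of absent regions at Bmp2 was unaltered, 7 of 16, and the difference of the Bmp2 share of the lists was 0.18 per 10000, beside -0.711 with all libraries.

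Bmp4 had few regions, and the 4 within 100 kb of the gene that both controls shared were kept in every mutant. A region over the gene body (chromosome 14, 46385063 to 46389171) reached a fold of 8.18, 7.39 and 4.71 in mutants 1, 2 and 3, against 9.02 and 7.41 in controls 1 and 2. The region of the annotated start printed above (46389503 to 46391170) had folds of 5.86, 4.76 and 4.21 in the mutants and 5.55 and 3.77 in the controls. Since Bmp4 lies on the minus strand, higher coordinates are upstream. A region 45.8 kb upstream (46436420 to 46437476) had folds of 5.86, 7.06 and 3.87 in the mutants and 8.15 and 8.49 in the controls and was, with the gene body, the strongest of the window. Regions 7.33 kb upstream (46397999 to 46398726; 3.7, 3.28 and 2.86 in the mutants, 4.33 and 3.23 in the controls) and 176 kb upstream (46566763 to 46567809; 4.47, 4.43 and 3.03 in the mutants, 5.72 and 4.58 in the controls) were also found in every library. Each mutant kept these same 5 of the 7 regions of both controls (71.4%).

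The 2 Bmp4 regions without a peak in any mutant lay far upstream. The first (46575382 to 46575865), 185 kb out, met the last 64 bases of the printed Rubie window, which include the start, with folds of 4.16 and 3.5 in controls 1 and 2. The second (46585504 to 46585895), 195 kb out, had folds of 3.64 and 3.5. The second is nearer to an end of Cdkn3, a cell cycle phosphatase gene outside the window, than to Bmp4 (175 against 195 kb). The first lies about 185 kb from each gene and falls to Cdkn3 only by its summit. Within 100 kb of Bmp4 none of 4 regions of both controls was absent. The other 8 regions held a peak in 1 control, and 3 of them, within 7 kb of the gene (46380273 to 46380633, 46381428 to 46381988 and 46397148 to 46397356), were found in control 1 alone with folds of 3.81, 3.12 and 2.95. Of these, the region from 46490860 to 46491313 was also found in mutant 2 (fold 2.96 there, 4.33 in control 1).

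At Bmp7, regions near the high-coordinate end of the gene were kept and those in the rest of its body were mostly not. The region over that end (chromosome 2, 172936249 to 172941054) was the strongest of the window, with a fold of 8.95, 11.3 and 6.22 in mutants 1, 2 and 3, against 11.3 and 10.4 in controls 1 and 2. Beside it, the region with the printed Gm40010 start (172933486 to 172936077) had folds of 4.94, 6.73 and 4.71 in the mutants and 10.1 and 8.49 in the controls: every mutant lay below both controls. The region over the low-coordinate end (172867086 to 172868075) had no peak in mutants 1 and 3, a fold of 2.63 in mutant 2, and 7.11 and 4.72 in the controls. With lists of equal length this region stayed in both controls, while the peak of mutant 2 lay under the lowest fold kept in that library, 3.61.

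Within the 72.3 kb of the Bmp7 body and at its ends lay 19 regions, of which 7 were shared by the controls and 2 of these found in every mutant. Absent from all mutants were 172881445 to 172883135 (folds of 4.51 and 3.5 in controls 1 and 2) and 172885676 to 172886154 (3.47 and 3.37). Found in mutant 2 alone of the mutants were 172887194 to 172887925 (3.94 in mutant 2, 3.47 and 3.23 in the controls) and 172924621 to 172925762 (3.61 in mutant 2, 4.85 and 4.45 in the controls). Shared by a control and some mutants were 172911546 to 172912226 (3.61 in mutant 2, 3.99 in control 1) and 172931464 to 172932342 (3.28 in mutant 2, 3.2 in mutant 3, 3.12 in control 1). The last 10 regions were found in 1 library each, 8 of them in a control, with folds of 2.56 to 4.45.

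Outside Bmp7, the far low-coordinate side held regions that every mutant kept. The strongest (172727880 to 172729243), 139 kb out, had a fold of 6.79, 9.03 and 6.22 in mutants 1, 2 and 3, against 6.94 and 6.6 in the controls. A region 109 kb out (172758300 to 172759345) had 5.71, 5.58 and 5.05 in the mutants and 5.37 and 4.45 in the controls, and a region 35.8 kb out (172830852 to 172832231) had 5.25, 5.75 and 4.71 in the mutants and 6.76 and 5.39 in the controls. Of the 15 regions of both controls on the whole low side, 4 were found in every library and 5 in no mutant. The strongest of the absent ones lay 28.3 kb (172839167 to 172839748; 4.33 and 3.37 in controls 1 and 2), 15.5 kb (172851612 to 172852551; 4.16 and 3.37) and 134 kb out (172733573 to 172733924; 3.64 in each). On the high side a region 10.5 kb out (172950833 to 172951290; 3.81 and 3.77) was absent too.

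The strong kept regions farther out on the high side belong by position to other genes. The region over an end of Rae1, a gene of messenger RNA export (172999393 to 173001344), had folds of 9.26 in mutant 1 and 8.41 in mutant 3 and was highest of all in mutant 2, against 11.4 and 10.1 in the controls. At Rbm38, which encodes an RNA-binding protein, a region over an end (173021419 to 173023949) had 6.94, 9.2 and 8.24 in the mutants and 8.67 and 9.3 in the controls, and a region beside it (173018493 to 173020912) 7.71, 8.05 and 6.9 in the mutants and 8.32 and 8.22 in the controls. A distal region near Ctcfl, 149 kb out (173089401 to 173089947), had 3.86, 3.94 and 3.53 in the mutants and 7.8 and 4.58 in the controls.

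The mutants also kept different numbers of regions at Bmp7. Mutants 1, 2 and 3 kept 19 (54.3%), 23 (65.7%) and 16 (45.7%) of the 35 regions of both controls. Of the 98 Bmp7 regions, 50 were found in 1 library alone, as were 41.1% of all regions of the genome. Mutant 2 had the longest list of the mutants (42794 peaks). Of the 50, 16 were in a mutant and 34 in a control, and 12 of the 16, all distal, were in mutant 2. This split by library was not counted over the genome. Mutant 2 was thus the library with the fewest regions at Bmp2 and with the most among mutants at Bmp7; over the genome, mutant 2 kept the most of the 3 at 46.4% of the genes with at least 10 regions of both controls. The difference between the genes was not tested. The covered length followed the same order, with 9.31, 6.7 and 8.52 kb under peaks at Bmp2 in mutants 1, 2 and 3 against 15.8 and 14.7 kb in the controls, and 23, 29 and 13.1 kb at Bmp7 against 44.9 and 31.6 kb.

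The fold cannot be compared across libraries directly, so its percentile among the 19579 regions with a peak in all 5 libraries was used, where every list has the same length. Of the 23 regions of this kind in the windows of the ligand genes, 7 ranked higher in every mutant than in either control and 3 lower, where 12.8% and 11.6% of all such regions did. The median difference, mutant minus control, was 6.84 points for the 23 and 0.924 points for all. By window it was 5.08 at Bmp2, -0.739 at Bmp4 and 8.31 at Bmp7. Without control 2 the median over the 3 windows was 1.9 points. The region with the Gm40010 start in Bmp7 had the lowest difference of the 23, at percentiles 33.1, 51.9 and 43.1 in the mutants against 75.7 and 66.2 in the controls (difference -28.2; mutant SD 9.4, control SD 6.7). The region 45.8 kb upstream of Bmp4 stood at 48.8, 55.6 and 23.4 against 56.0 and 66.2 (difference -18.5), and the region near Ctcfl averaged 12.1 ± 1.3 in the mutants against 35.2 ± 24 in the controls (SD, n = 3 and 2; difference -23). In these the mutants lay below the controls without overlap.

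The start of Bmp4 ranked higher in every mutant, at percentiles 48.8, 25.9 and 32.1 against 22.5 and 7.12 in the controls (difference 20.8). So did the Bmp7 regions 139 kb (61.6, 74.9 and 65.1 against 40.6 and 46.2, difference 23.8), 109 kb (46.4, 38.2 and 48.9 against 20.4 and 16.4, difference 26.1) and 35.8 kb out (38.6, 40.3 and 43.1 against 38.4 and 30.6, difference 6.13) on the low side. The others were on the high side of Bmp7, 78.2, 140.0 and 167 kb out, and lay nearest to ends of Rbm38, Gm40011 and Ctcfl. At Bmp2 the groups overlapped in all 4 regions, with differences of -11.4 to 13.6. The exact two-sided permutation p per region was 0.2 or more, which is the least this design can give, so none passed a test.

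**Figure D3:**
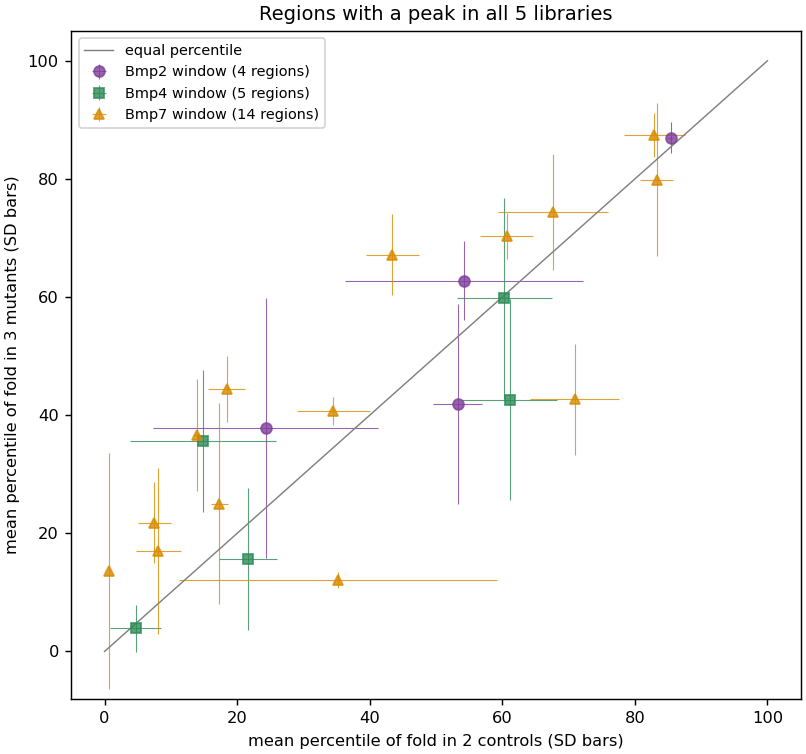
Mean percentile of the fold in the 3 mutants (vertical) against that in the 2 controls (horizontal) for the 23 regions of the Bmp2, Bmp4 and Bmp7 windows with a peak in every library; bars are SDs and the line marks equal percentiles. The Bmp7 region at 42.7 in the mutants and 70.9 in the controls lies farthest below the line.

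Other genes of the BMP pathway were read with the same windows, and over all 32 of them 104 of 468 regions of both controls were absent from every mutant (22.2%, beside 30.4% over the genome). The median over the 32 windows was 22.1%, and over the 13073 gene windows with at least 10 such regions it was 16.7%. Among other ligands it was 13 of 90 (14.4%): none of 8 at Bmp6 and none of 22 at Gdf11, and 6 of 17 at Gdf6, a ligand of joint formation. Receptor genes had 28 of 87 absent (32.2%), with 15 of 32 at Bmpr1b, the type I receptor of cartilage condensations, and none of 8 at Bmpr2. Smad genes had 22 of 105 (21.0%), with 6 of 11 at Smad1 and 1 of 14 at Smad5, both of which carry the BMP signal. Extracellular antagonists and modulators had 22 of 89 (24.7%), with 5 of 10 at Chrdl1, an antagonist, and 1 of 13 at Twsg1, which modulates BMP binding to chordin. Target genes had 19 of 97 (19.6%), with 3 of 6 at Id4 and 3 of 27 at Id1, both inhibitors of DNA binding. Fewer regions in every mutant than in either control were seen at 25 of the 32 genes, where 58.3% of all protein-coding genes showed it, and the reverse at none (0.0198% of all). Set against the length of each list, the share was lower in every mutant at 3 of the 32 genes and higher at 8, beside 11.4% and 38.0% of all protein-coding genes. The windows of these genes, too, hold regions of neighbouring genes.

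**Figure D4:**
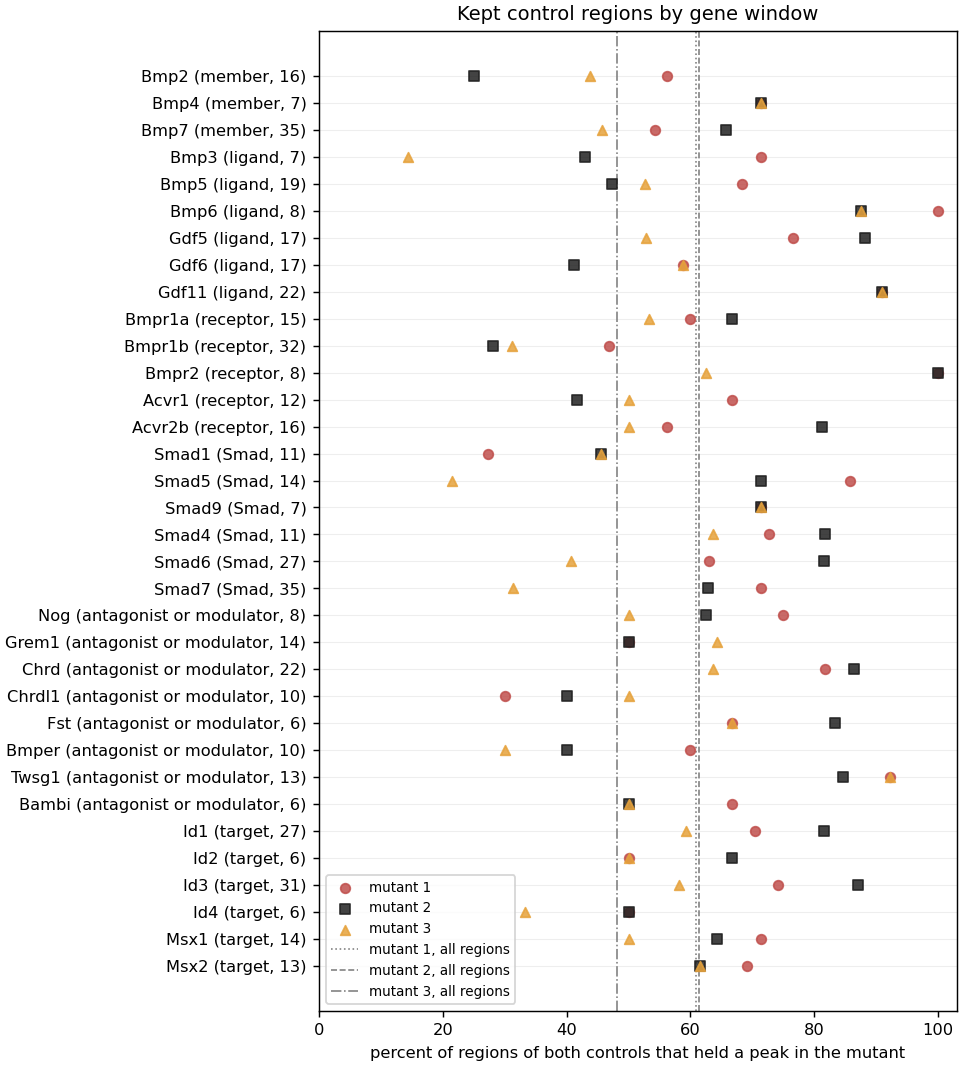
Percent of the regions of both controls that held a peak in mutant 1 (red circle), mutant 2 (black square) and mutant 3 (orange triangle), for Bmp2, Bmp4, Bmp7 and the pathway genes with at least 5 such regions (their number in brackets); vertical lines give the same for all regions (60.9%, 61.4% and 48.2%). Bmp2 in mutant 2 stands at 25%, the lowest black square.

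Genes whose windows kept control regions in the most similar way were looked for by the sum of the absolute differences of the kept share over the 3 mutants, among windows that do not overlap the ligand gene's own. The closest to Bmp2 of 13072 genes were Arl14ep (57.1%, 21.4% and 42.9% kept in mutants 1, 2 and 3; sum 5.36 points) and Mpped2 (56.5%, 26.1% and 39.1%; 5.98), whose windows overlap each other. The closest to Bmp7 were St7 (55.0%, 65.0% and 45.0%; 2.14) and, at 2.6 points, 13 genes with equal sums, of which Akr1b10 (54.5%, 63.6% and 45.5%) is the first by name. For Bmp4, with only 7 regions, 6 genes had the identical shares, the first by name being Ccp110 and Cd109.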

How the data were processed

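The labels give the genotype of each of 5 libraries; replicate numbers follow sample order and pair nothing. The submitters' processing notes list bcl2fastq 2.20.0, Bowtie2 2.3.5, MACS2 and the build mm10. For MACS2, which wrote the peak lists, the version, options, duplicate removal and transposase shift are not stated in the labels, so their effect on the peaks is unknown. The authors deposited 1 peak list per library: start, end and summit (other values, in bp), a score (not used), a fold enrichment ratio over the library's background, and −log10 p-value and −log10 q-value.

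Chromosomes 1 to 19 and X were used, with 21631 protein-coding genes of the RefSeq table (GRCm38.p6). A region's fold is its highest peak. Gene-end means within 1 kb of either gene end; strength is the mean percentile of fold over both controls, in 10 classes. Groups were compared with an exact two-sided permutation test over libraries, with Benjamini-Hochberg adjustment over the 3 genes. Windows, thresholds, list length, overlap and libraries were varied. Counting and merging were tested on simulated data with the same peak rate in every library, which do not imitate the shorter mutant lists. Genes, pathway list and rules were chosen with earlier results of these data known. Regions named are those at the genes' ends and bodies, the 5 strongest, the 5 strongest absent and the 5 strongest distal ones kept; others, named for single results, were chosen after their values were seen. Single-library regions in the Bmp7 body are given as a range. Python 3.11.15, pandas 2.3.3 and scipy 1.17.1 were used.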

Additional observations from a re-analysis of the deposited data

How the results depend on the processing

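No paired analysis was possible because the labels give no replicate numbers. No setting could pass the exact permutation test, since 3 against 2 libraries allow no p under 0.2, so stability of a call could not be judged. The lower number of regions in the mutants held its direction at Bmp2 in all 12 settings, and at Bmp4, Bmp7 and over the 3 genes in 11; with lists of equal length the differences were 1.17, 3.5 and 2.17 regions. The groups no longer separated at any of the 3 genes at equal length (exact permutation p = 0.4 each), at Bmp7 by nearest gene end and with 50% overlap (p = 0.4 each) and at Bmp4 with a window of 50 kb (p = 0.8) and for a −log10 q from 10 upward (p = 0.6). Leaving out 1 library gave -14.5 to -11.5 (Bmp2), -6.67 to -4.67 (Bmp4), -36.3 to -19.0 (Bmp7) and -55.7 to -37.3 (together). Without mutant 3 the groups at Bmp7 did not separate either (difference -20.0, exact permutation p = 0.667). The share of the list per 10000 peaks was less stable. At Bmp4 it separated the groups with windows of 100 kb (0.6) and 50 kb (0.683), and at Bmp7 with 50 kb (-1.67; exact permutation p = 0.2 each). How many genes separate with these narrower windows was not counted, so such a gap is not read as particular to Bmp4 or Bmp7. With the windows of the main results, the share was higher in every mutant at 38.0% of protein-coding genes and lower at 11.4%. Beside -0.711 for Bmp2 the difference per 10000 was 0.287 with a window of 50 kb and -1.19 to 0.18 without 1 library. Beside 0.192 for Bmp4 it was -0.313 and -0.158 when peaks under a −log10 q of 5 and of 10 were dropped, and -0.0298 to 0.439 without 1 library (below 0 without mutant 3). Beside -0.336 for Bmp7 it was 0.496 for peaks with a −log10 q from 10 upward, 1.47 at equal length and -1.65 to 0.819 without 1 library (0.819 without mutant 3, 0.181 without control 1). Over the 3 genes it was -0.855, 1.04 at equal length, and -1.14 to -0.402 without 1 library. The absent share of Bmp4 was 0.0% with a window of 100 or 50 kb, by nearest gene end and at equal length, which leave out or trim the far regions; at equal length it was 28.6% for Bmp2, 7.14% for Bmp7 and 12.5% over the 3 genes, where the genome had 13.4%. At Bmp7 it was 41.4% for peaks with a −log10 q from 5 upward. Without 1 library it ran from 43.8 to 56.2% (Bmp2), 28.6 to 50.0% (Bmp4), 28.6 to 50.0% (Bmp7) and 35.1 to 51.0% (together). Leaving out a mutant cannot lower the number absent, and leaving out a control adds regions of a single control to the base. Apart from the main results and equal length, the absent share over the genome was not counted, so these shares have nothing to be set against. Regions found in the mutants alone numbered 2 at equal length, both at Bmp7. Each held a control peak in the full lists: 172773101 to 172773772 in control 1 (3.81), and 173107108 to 173108026 in controls 1 and 2 (4.51 and 3.64). The lowest fold kept at equal length was 4.51 and 4.04 in controls 1 and 2, against 3.39, 3.61 and 2.52 in mutants 1, 2 and 3. Mutant-only regions numbered 0 to 1 without 1 library, at Bmp7 and so over the 3 genes (1 without mutant 3 or control 1). The median rank difference (Bmp2 5.08, Bmp4 -0.739, Bmp7 8.31, together 6.84) was -0.751 to -0.612 at Bmp4 and kept its sign elsewhere with a window of 100 kb, 50% overlap and −log10 p in place of the fold. Without 1 library it ran from -1.38 (without control 2) to 11.3 at Bmp2, from -9.02 (without mutant 1) to 1.81 (without mutant 3) at Bmp4, from 7.14 to 11.7 at Bmp7 and from 1.9 (without control 2) to 6.44 together; each move was under 1 SD between libraries. Apart from lists of equal length the cause of these shifts was not tested. Read depth is unknown, so a missing peak is not a measure of closed chromatin.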
